A study of Glycine max with 6 samples.

Results

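Lipoxygenase transcripts were examined in leaves of soybean (Glycine max) cultivar BR16 at 80 and 20 days after germination (DAG). The genes were listed by identifier, and the list was drawn up with earlier results of these data known. They comprise 6 tandem genes of chromosome 8 (Glyma.08G189200, Glyma.08G189300, Glyma.08G189400, Glyma.08G189500, Glyma.08G189600 and Glyma.08G189800) and 3 seed lipoxygenase genes, Lox1 (Glyma.13G347600), Lox2 (Glyma.13G347500) and Lox3 (Glyma.15G026300). All 9 were rows of the count table, which has 56044 gene rows (models of the Wm82.a2.v1 annotation). The 80 DAG group (3 libraries, reproductive stage R7) and the 20 DAG group (3 libraries, vegetative stage V3) came from wild-type plants grown in soil in a greenhouse, with no treatment. The deposited design text calls both ages vegetative, and the stages given here are those of the study's methods. Disks were punched from the central leaflet of trifoliate leaves at the third and at the seventh position, and the methods do not say which leaf belongs to which age. Age, stage and possibly leaf position therefore changed together and cannot be told apart. The samples were whole leaf tissue, so that fewer cells of a type and less RNA per cell cannot be told apart either.

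Lipoxygenases are iron-containing enzymes that add molecular oxygen to polyunsaturated fatty acids such as linoleic and linolenic acid. The resulting hydroperoxides are substrates for allene oxide synthase, the first committed step towards jasmonic acid, and for hydroperoxide lyase, which yields the volatile aldehydes of cut leaves. In soybean, Lox1, Lox2 and Lox3 are known as abundant proteins of the mature seed, where they contribute to the beany flavour of soy products. Soybean leaves contain a separate set of vegetative lipoxygenases, some of which accumulate in the paraveinal mesophyll as temporary nitrogen stores together with the vegetative storage proteins.

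The reads of the 9 genes came almost entirely from 1 of them. Glyma.08G189600 accounted for 3643 of the 3658 counts that the 9 genes had over the 6 libraries (99.6%), and the other 8 genes shared 15 counts. Glyma.08G189600 had 2, 29 and 1 counts in replicates 1, 2 and 3 of 80 DAG, against 223, 2784 and 604 counts in replicates 1, 2 and 3 of 20 DAG. Glyma.08G189200 was the only other gene with more than 1 count. It had 7, 0 and 6 counts in replicates 1, 2 and 3 of 80 DAG, and 0 counts in each of the 3 libraries of 20 DAG. The remaining tandem genes and the seed lipoxygenases had 0 or 1 count over all libraries.

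**Figure D1:**
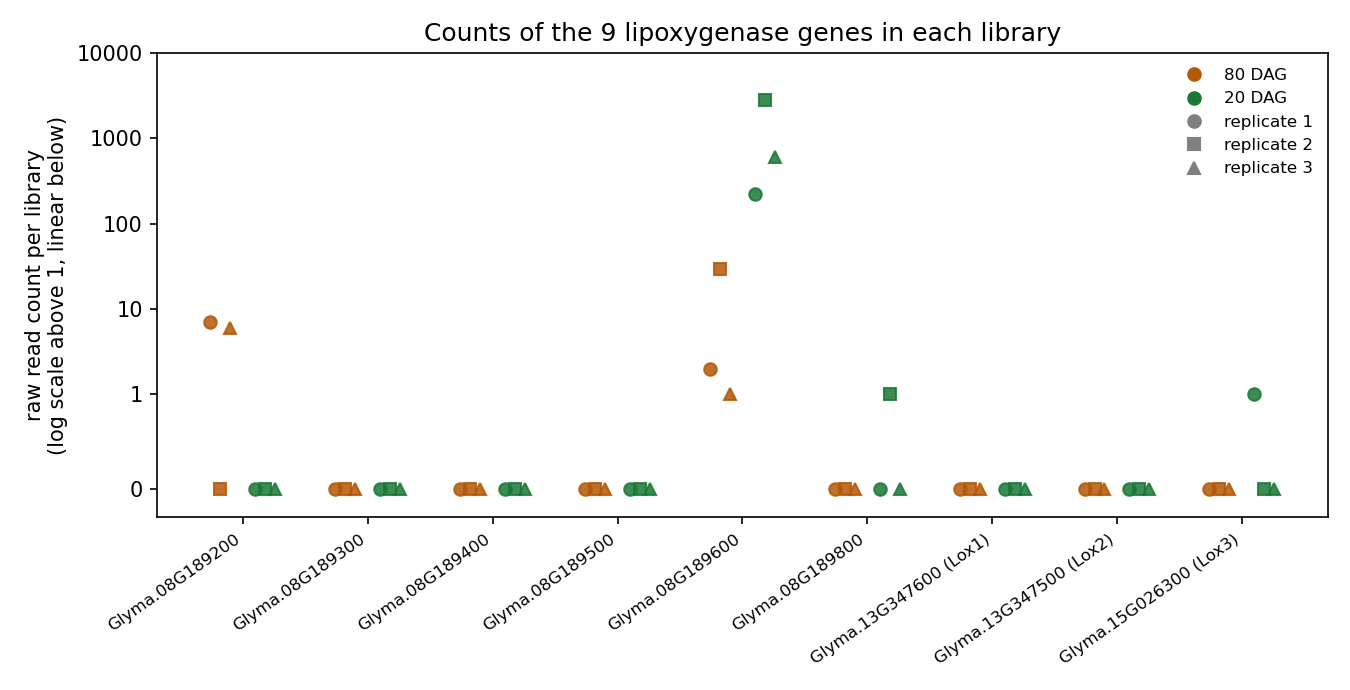
Raw read count of each of the 9 lipoxygenase genes (x axis) in each library (y axis, log scale above 1 and linear below), with 80 DAG to the left of 20 DAG and a marker shape for each replicate. Counts of Glyma.08G189600 lie between 223 and 2784 at 20 DAG and between 1 and 29 at 80 DAG, whereas 5 of the other genes are at 0 in all 6 libraries.

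Library totals ranged from 12353418 to 15883253 counts at 80 DAG and from 10758425 to 12184798 counts at 20 DAG. Expression is given in CPM, counts per 1000000 of an effective library size in which edgeR's TMM factor multiplies the summed counts of tested genes. The effective size ran from 9392337 (replicate 1 of 20 DAG, with a factor of 0.773) to 18430345 (replicate 1 of 80 DAG). No library was a copy of another, since the chi-square per degree of freedom between replicates of an age was 7.22 or more. Because 0 counts are compatible with a small true rate, a limit of 3 counts was used for genes without reads. Over the 3 libraries of an age this limit corresponds to 0.0667 CPM at 80 DAG and to 0.0930 CPM at 20 DAG, and it covers counting error only. Transcript lengths of the gene models were not used here, so that CPM values are compared between ages of a gene and not between genes.

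Glyma.08G189600 fell with age. Its level was 0.109, 2.39 and 0.0693 CPM in replicates 1, 2 and 3 of 80 DAG, against 23.7, 217 and 60.3 CPM in replicates 1, 2 and 3 of 20 DAG. Every 80 DAG library was below every 20 DAG library, and the lowest 20 DAG library was 9.95 times the highest 80 DAG library. The mean was 0.855 ± 1.33 CPM at 80 DAG and 100.2 ± 102 CPM at 20 DAG (SD, n = 3 each). The log2 fold change of 80 DAG over 20 DAG was −6.99 (SE 1.37; Benjamini-Hochberg adjusted p = 0.00513 in the quasi-likelihood test of edgeR, over every gene tested), which is a 127-fold lower level at 80 DAG. Among the 30058 genes tested, 7812 were called lower at 80 DAG at an adjusted p under 0.05 (26.0%), and 49.1% were called in either direction. The groups of 31.2% of the tested genes did not overlap in CPM with 80 DAG as the lower one. A fall is thus common in this comparison, and the fitted size of this one was less common: 373 tested genes (1.24%) had a more negative fitted log2 fold change. That rank rests on 2, 29 and 1 counts at 80 DAG.

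The size of the fall in Glyma.08G189600 was loosely defined, because replicates of both ages lay far apart. The highest library of 20 DAG was 9.13 times the lowest, a span that was wider in only 0.821% of the 12065 tested genes with a mean of at least 10 CPM at 20 DAG (the median span was 1.39 times). At 80 DAG the highest library was 34.4 times the lowest, although replicates 1 and 3 rest on 2 and 1 counts. Their exact Poisson intervals at 95% ran from 0.0131 to 0.392 CPM in replicate 1 and from 0.00176 to 0.386 CPM in replicate 3, whereas that of replicate 2 ran from 1.60 to 3.43 CPM. The gap between replicate 2 and the other 80 DAG libraries was thus larger than counting error. Replicate 2 was the highest library at both ages, and leaving it out moved the estimate in opposite directions. The log2 fold change was −9.95 without replicate 2 of 80 DAG, −5.77 without replicate 2 of 20 DAG, and −8.71 without both (adjusted p = 0.00299, 0.00692 and 0.000891, from the same test). It was −6.37 without replicate 1 of 80 DAG and −6.41 without replicate 3 of 80 DAG, and Glyma.08G189600 passed the threshold with each library left out in turn.

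Glyma.08G189200, the first gene of the tandem array, was seen at 80 DAG alone, with few reads. Its level was 0.380, 0 and 0.416 CPM in replicates 1, 2 and 3 of 80 DAG, against 0 CPM in every 20 DAG library. Replicate 2 of 80 DAG had no count, like the 20 DAG libraries, so that the groups overlapped. Summed over libraries, 13 counts at 80 DAG (0.289 CPM) stood against the limit of 3 counts over the 20 DAG group, a ratio of 3.11. That ratio is not a lower bound of the change. It includes neither the counting error of the 13 counts themselves nor the spread between libraries. The gene was removed by edgeR's filter on low counts. In the fit without that filter its adjusted p was 0.0820 (unadjusted p = 0.0361, quasi-likelihood test of edgeR), which did not pass the threshold. The adjusted p was 0.196 with DESeq2. Without replicate 2 of 80 DAG, the 80 DAG library with 0 counts, it was 0.0267 in edgeR and passed. With any other library left out it was between 0.105 and 0.196, and with the replicate number as a block it was 0.154. Replicate 2 of 80 DAG, the library without Glyma.08G189200 reads, was the one with most Glyma.08G189600 reads at that age, and the relation of the counts in 3 libraries was not tested.

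The inner genes of the array, Glyma.08G189300, Glyma.08G189400 and Glyma.08G189500, had no count in any library. Over all 6 libraries, a count of 0 allows a level of up to 0.0388 CPM. Glyma.08G189800 had 1 count, in replicate 2 of 20 DAG, the library with the largest count of Glyma.08G189600. Glyma.08G189700 lies between these rows and was not among the genes chosen. It also had 1 count, in the same library. Lox1 and Lox2 had no count in any library, and Lox3 had 1 count, in replicate 1 of 20 DAG. A change of these genes with age was not detectable at this depth. Of the 9 genes, 5 (55.6%) had no count in any library, against 12326 of the 56044 genes of the table (22.0%). Only 1 of the 9 passed the expression filter, Glyma.08G189600, and it did so through its 20 DAG libraries, against 53.6% of the table. How the counting treated reads that match several near-identical tandem copies is not stated, and reads of one copy may be credited to another or dropped. Its part in the zeros was not tested.

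Reads were more frequent in the rows next to the chosen genes. Genes within 5 rows of the chosen genes in the order of the table, or between them, made up 31 neighbours, of which 20 were tested. Among these, 5 were called lower and 7 higher at 80 DAG, against 26.0% and 23.1% of all tested genes in these directions. The other 8 were not called, and the median log2 fold change of the 20 was 0.38, against −0.02 over all tested genes. The files do not pair the neighbouring identifiers with names, so that they are given by identifier. In the RefSeq annotation of another assembly, Glycine_max_v4.0, the lipoxygenases LOXB1 and LOX7 are the genes listed after LOX1.1 on chromosome 13, and VLXB is listed close to LOX3 on chromosome 15. Some of the neighbouring rows may therefore be lipoxygenases too, but that annotation carries no identifier of the count table and no name was assigned to a row. Of the 5 neighbours called lower, 4 were the pairs of rows that directly follow Lox1 on chromosome 13 and Lox3 on chromosome 15, and Glyma.08G188800 before the tandem array was the fifth.

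**Figure D2:**
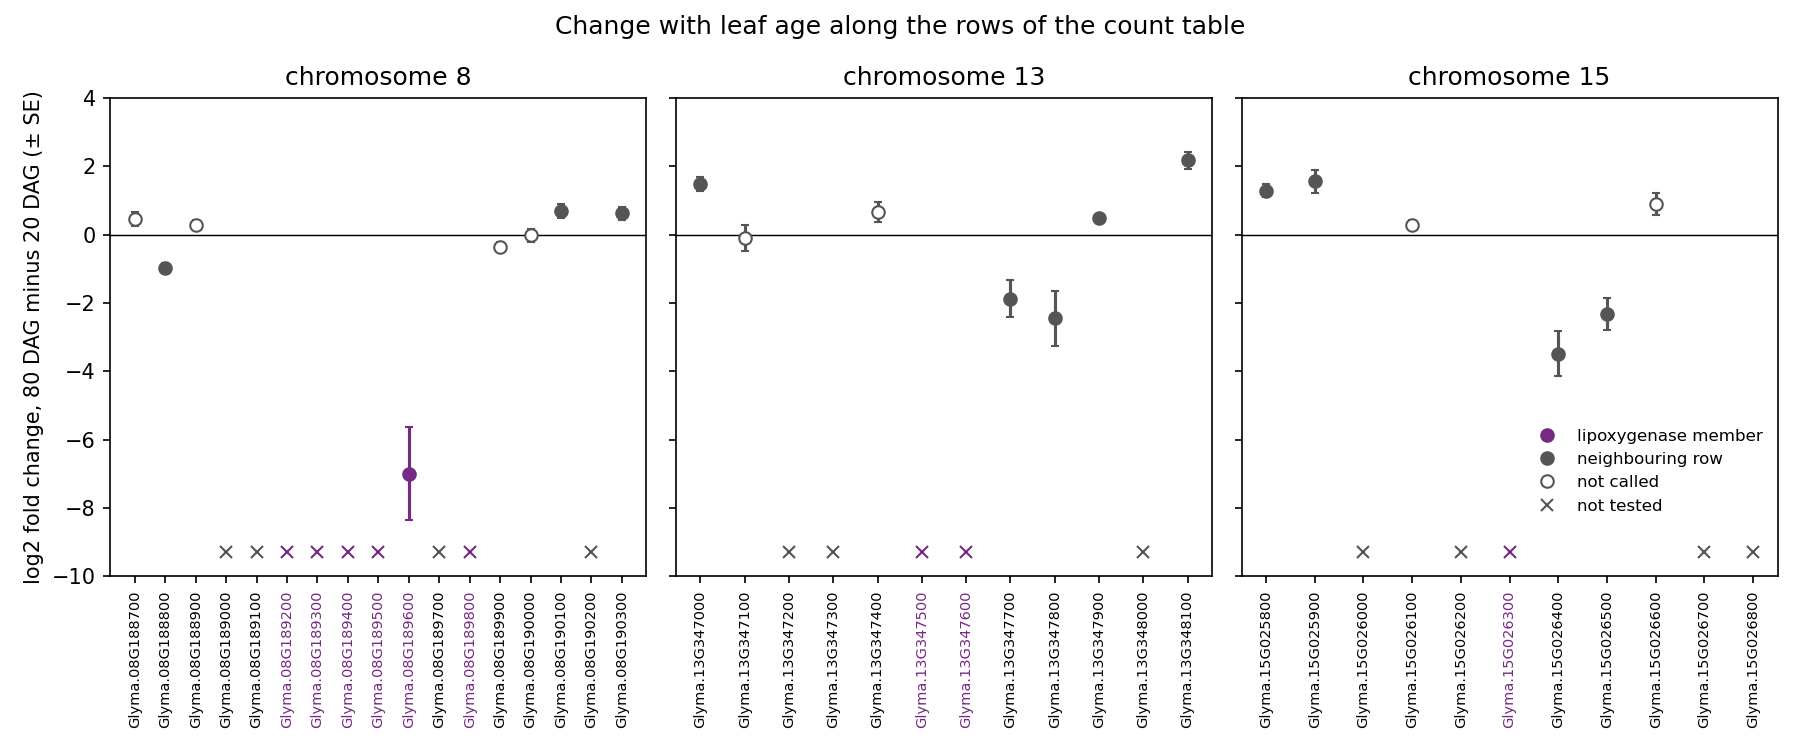
Log2 fold change of 80 DAG minus 20 DAG with its standard error (y axis) for the chosen lipoxygenases and their neighbours in table order (x axis, 3 panels by chromosome). Filled points passed an adjusted p under 0.05, and crosses at the bottom mark genes with too few counts for the test. Glyma.08G189600 is the lowest point at −6.99, and the pairs of rows that follow Lox1 and Lox3 lie between −3.49 and −1.87.

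On chromosome 15, the row after Lox3 fell with age. Glyma.15G026400 had 3.20, 13.7 and 4.09 CPM in replicates 1, 2 and 3 of 80 DAG, against 47.4, 126 and 59.4 CPM in replicates 1, 2 and 3 of 20 DAG. The groups did not overlap, and replicate 2 was the highest library at both ages. The log2 fold change was −3.49 (SE 0.66; adjusted p = 0.00448 in edgeR). The next row, Glyma.15G026500, had 71.9, 258 and 129 CPM in replicates 1, 2 and 3 of 80 DAG, against 795, 801 and 676 CPM in replicates 1, 2 and 3 of 20 DAG. Its 20 DAG libraries lay close together, and its 80 DAG libraries were all lower but spread over a wide range. The log2 fold change was −2.31 (SE 0.47; adjusted p = 0.00604 in edgeR). On the other side of Lox3, Glyma.15G025800 rose, with 45.3 ± 7.50 CPM at 80 DAG and 18.5 ± 2.14 CPM at 20 DAG (SD, n = 3 each; log2 fold change 1.29, adjusted p = 0.00147). Glyma.15G025900, nearer to Lox3 and named here after its values were seen, rose too (log2 fold change 1.56, adjusted p = 0.00688 in edgeR).

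On chromosome 13, the rows after Lox1 also fell, but their calls did not hold with every library left out. Glyma.13G347700 had 47.0, 248 and 159 CPM in replicates 1, 2 and 3 of 80 DAG, against 555, 569 and 538 CPM in replicates 1, 2 and 3 of 20 DAG. The groups did not overlap, and the spread was again on the side of 80 DAG. The log2 fold change was −1.87 (SE 0.55; adjusted p = 0.0259 in edgeR). Glyma.13G347800, named here after its values were seen, had 1.90, 13 and 2.08 CPM in replicates 1, 2 and 3 of 80 DAG, against 13.6, 46.9 and 30.1 CPM in replicates 1, 2 and 3 of 20 DAG. Replicate 2 of 80 DAG came close to replicate 1 of 20 DAG, but the groups did not overlap. Its log2 fold change was −2.45 (SE 0.81; adjusted p = 0.0410 in edgeR). Glyma.13G347700 lost its call without replicate 2 of 20 DAG, replicate 3 of 20 DAG or replicate 3 of 80 DAG (adjusted p = 0.0512, 0.0658 and 0.0767 from edgeR). Glyma.13G347800 lost it without replicate 2 or 3 of 20 DAG or replicate 1 or 3 of 80 DAG (adjusted p = 0.105, 0.0938, 0.112 and 0.118 from edgeR). Further along, Glyma.13G348100 rose to 54.9 ± 10.3 CPM at 80 DAG, against 12.1 ± 3.42 CPM at 20 DAG (SD, n = 3 each; log2 fold change 2.17, adjusted p = 0.000642), and Glyma.13G347900 changed by 0.48 on the log2 scale (adjusted p = 0.0219). The call of Glyma.13G347900 was lost without any library but replicate 1 of 20 DAG, with adjusted p from 0.0504 to 0.0583 in edgeR. On the other side of Lox2, Glyma.13G347000, also named after its values were seen, rose by 1.48 on the log2 scale (adjusted p = 0.0011 in edgeR).

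**Figure D3:**
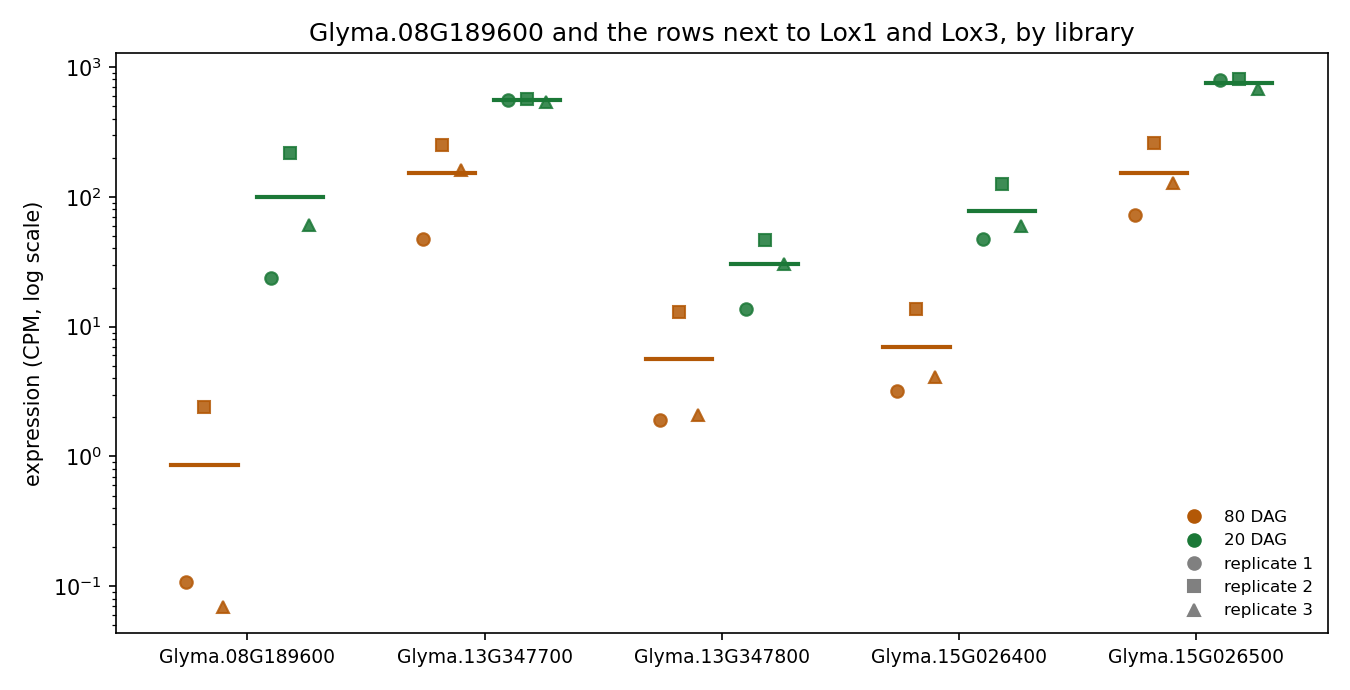
Expression in CPM (y axis, log scale) of Glyma.08G189600 and of the rows that follow Lox1 (Glyma.13G347700, Glyma.13G347800) and Lox3 (Glyma.15G026400, Glyma.15G026500), with 1 point per library, 80 DAG to the left of 20 DAG, and bars at the means. For each gene the 80 DAG points lie below the 20 DAG points, and replicate 2 (squares) is the highest of the 80 DAG libraries, at 2.39 CPM for Glyma.08G189600.

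Around the tandem array itself, 1 row was called lower and 2 were called higher at 80 DAG, out of 7 tested. Of all tested genes, 26.0% were called lower and 23.1% higher. Glyma.08G188800 had 16.9 ± 1.79 CPM at 80 DAG and 33.0 ± 2.00 CPM at 20 DAG (SD, n = 3 each), which is −0.97 on the log2 scale (SE 0.15; adjusted p = 0.00196 in edgeR). Glyma.08G190100 and Glyma.08G190300 rose by 0.68 and 0.62 on the log2 scale (adjusted p = 0.0271 and 0.0292). Glyma.08G190100 lost its call without replicate 1 or 2 of 20 DAG or replicate 2 or 3 of 80 DAG (adjusted p between 0.0624 and 0.0836 from edgeR), and Glyma.08G190300 without replicate 1 or 3 of 20 DAG or replicate 2 or 3 of 80 DAG (between 0.0600 and 0.0941). Of the rows that directly border the array, Glyma.08G189100 had no count in any library, and Glyma.08G189900 had 6.04 ± 0.298 CPM at 80 DAG and 7.73 ± 0.193 CPM at 20 DAG (SD, n = 3 each), a difference that was not called (adjusted p = 0.0850 in edgeR).

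A ratio of 2 genes within a library does not depend on how libraries are scaled, so the change of Glyma.08G189600 was also set against the 5 neighbours called lower, a comparison chosen after their values were seen. The log2 ratio of its counts to those of Glyma.15G026400 was −4.88, −2.52 and −5.88 in replicates 1, 2 and 3 of 80 DAG, against −1.0, 0.78 and 0.02 in replicates 1, 2 and 3 of 20 DAG. The ratio was lower in every 80 DAG library than in any 20 DAG library, with a mean difference of −4.36. The mean difference was −5.16 against Glyma.13G347800, −5.52 against Glyma.15G026500, −5.84 against Glyma.13G347700 and −7.04 against Glyma.08G188800, and the groups were separate in all 5 comparisons. These ratios restate the fitted values of the same libraries and give no separate support. The fitted log2 fold change was −6.99 for Glyma.08G189600, against −3.49 to −0.97 for the 5 genes. In each of the 5 comparisons an exact permutation test (two-sided) gave p = 0.1, also after adjustment over the 5, which is the smallest p that 3 libraries against 3 allow. The threshold could not be reached in this design. The ratios of replicates 1 and 3 of 80 DAG rest on 2 and 1 counts of Glyma.08G189600.

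**Figure D4:**
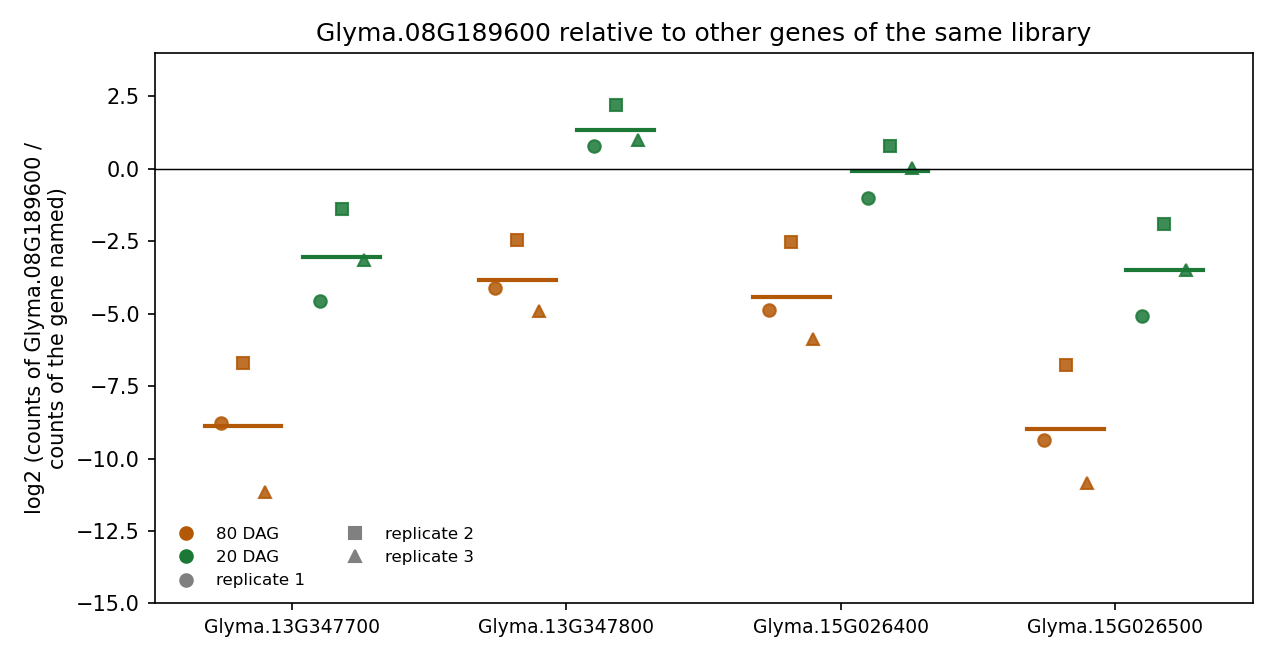
Log2 of the counts of Glyma.08G189600 divided by the counts of the gene on the x axis in the same library (y axis), with 80 DAG to the left of 20 DAG, bars at the means and a marker shape for each replicate. For Glyma.15G026400 the points lie between −5.88 and −2.52 at 80 DAG and between −1.0 and 0.78 at 20 DAG.

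Likeness to Glyma.08G189600 was measured as Pearson's r of log2 CPM (prior count 2) over the 6 libraries, among 12688 other tested genes with a mean of at least 10 CPM. The highest values were those of Glyma.04G198600 (r = 0.997), Glyma.14G080400 (r = 0.996) and Glyma.15G026400 (r = 0.996), the row after Lox3. The libraries form 2 ages, so that genes with a clear fall score high in general, and 379 genes (2.99%) had r of at least 0.95. Glyma.13G347800 had r = 0.967 and Glyma.15G026500 r = 0.95, whereas Glyma.13G347700 had r = 0.881. Glyma.04G198600 had 3.91, 13.4 and 3.12 CPM in replicates 1, 2 and 3 of 80 DAG, against 64.6, 261 and 160 CPM in replicates 1, 2 and 3 of 20 DAG (log2 fold change −4.58, adjusted p = 0.00267 from edgeR). Glyma.14G080400 had 10.5 ± 1.78 CPM at 80 DAG and 21.1 ± 2.81 CPM at 20 DAG (SD, n = 3 each), so that its change was similar in order and small in size. In these 3 genes and in Glyma.08G189600, replicate 2 was the highest library of both ages and replicate 1 the lowest of 20 DAG. The 3 genes were picked by likeness over these same libraries, so a shared order follows largely from that choice. The same order of libraries was found in 1057 of the 12688 genes (8.33%), and in 237 (5.81%) of the 4079 with separate ages and 80 DAG lower. Lox3, the seed lipoxygenase with the highest mean, had 1 count in all, and no likeness was computed for it.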

How the data were processed

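Leaf RNA was depleted of ribosomal RNA and sequenced as stranded paired-end libraries. The authors deposited raw counts per gene, without normalization, in 1 table. Their processing notes name CASAVA 1.7, Bowtie2 and DESeq2, with no role, and the counting program and its use of strand are not given in the sources used here. All 6 columns matched a sample title (0 were unmapped). The members, lists and neighbours were chosen with earlier results of these data known.

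Libraries of 80 DAG were tested against those of 20 DAG with the quasi-likelihood F-test of edgeR 4.0.16 (R 4.3.3), TMM factors and the default filterByExpr. Genes were called at a Benjamini-Hochberg adjusted p under 0.05 (every tested gene entering the adjustment) with no fold change minimum. The main test differs from the DESeq2 analysis of the study. The standard error (SE) was taken as the size of the log2 fold change over the root of its F statistic. The fit was also run on counts simulated from its own means and dispersions with few changed genes. Such a run checks the procedure and not how well the model describes these data. The replicates were biological triplicates. Alternatives were DESeq2 1.42.0, limma-voom (limma 3.58.1), other scalings, filters and thresholds, the replicate number as a block and each library left out. Leaving out both libraries numbered 2, all alternatives for the neighbours and similar genes, and the block and left-out libraries for Glyma.08G189200 in the fit without the filter were added after seeing the data. Python 3.11.15, pandas 2.3.3 and scipy 1.17.1 made the summaries.

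All members were to be named with the 3 called genes of highest mean CPM in each list and the 3 genes most like the member with the highest mean. The pathway lists (allene oxide synthase, jasmonate signalling and others), the leaf, seed and nodule markers and the promoter motifs were set by RefSeq descriptions and sequences. The reference used here holds neither, and 0 of its 59048 rows carry an identifier of the count table. These lists were therefore not analysed here, the tissue label was not checked against markers, and the naming rule was applied to the neighbours of each chromosome.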

Additional observations from a re-analysis of the deposited data

How the results depend on the processing

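Glyma.08G189600 was called lower at 80 DAG under all 13 alternatives that tested it, with a log2 fold change between −9.95 and −5.77 and an adjusted p between 4.5e-05 (DESeq2) and 0.0230 (edgeR without replicate 1 of 80 DAG). With at least 10 counts in every library the gene is removed, and 0 members were called. The labels number the libraries 1 to 3 at both ages, and no pairing is described. Deviations of same-numbered libraries from their age means had correlations of −0.24, −0.33 and 0.08. Those of unlike-numbered libraries ran from −0.27 to 0.36. Deviations from a mean of 3 libraries cancel out within an age, so these values cannot decide whether same-numbered libraries were paired. With the replicate block the log2 fold change was −7.37 (adjusted p = 0.00237) and 11702 genes were called over the table. The call of Glyma.13G347900 was lost under that block (adjusted p = 0.0765), and no other gene named here lost its call under it. At an adjusted p under 0.01, 9492 genes were called, and 7 of the neighbours. Without 1 library, 7 to 10 neighbours were called, 7 of them without replicate 3 of 80 DAG, against 12 with all libraries. Calls over the whole table numbered 14758 with all libraries and 11696 to 14817 without 1 library, with 11840 without replicate 3 of 80 DAG. Scaling by library size alone gave a median over the tested genes of 0.21 on the log2 scale, against −0.02 with TMM, and 6063 genes were called lower and 7221 higher with it, against 7812 lower and 6946 higher with TMM, so that the balance of calls turned. Glyma.08G189600, the called neighbours followed under the alternatives and the genes most like Glyma.08G189600 kept their direction with that scaling. Glyma.08G190300 was not called with that scaling (adjusted p = 0.0513), and Glyma.08G190100 and Glyma.13G347900 were not called without both libraries numbered 2 (0.117 and 0.0942). At 80 DAG the depth limits every statement on the lipoxygenases: 8 of the 9 genes had 7 counts or fewer in each library.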
